A study of Mus musculus with 8 samples.

Results

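The ion channel and calcium handling genes of vascular smooth muscle were measured by RNA-seq in the whole aorta of atherosclerotic mice. There were 10, namely Kcnma1, Kcnmb1, Cacna1c, Kcnj8, Abcc9, Itpr1, Ryr2, Atp2a2, Pln and Ano1. The members were found by gene name in a table of 48607 loci, and where several loci carried a name, the one with the most counts was taken. All 10 names were present. The data comprised 8 libraries of poly(A) RNA, 5 titled ApoE-/- and 3 titled NPRC-/-ApoE-/-. All mice lacked apolipoprotein E and were fed a Western diet for 12 weeks, and the second group also lacked natriuretic peptide receptor C (NPRC), in every tissue, through a CRISPR frameshift in Npr3. The genotype entered for each sample went against the title for 4 libraries: those titled ApoE-/- 4 and 5 were entered as NPRC-/-ApoE-/-, and those titled NPRC-/-ApoE-/- 1 and 2 were entered as ApoE-/-. The groups were therefore formed by title and again by genotype entry, both of which set 5 libraries against 3. The groups were littermates from a cross of both lines. The ApoE-/- mice bought for the study were young males, and no age or sex is stated separately for the littermates sequenced.

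Contraction of the arterial wall follows the cytosolic calcium of its smooth muscle cells. Calcium enters through L-type channels when the membrane depolarizes and is also released from the sarcoplasmic reticulum, from where calcium pumps later recover it. Potassium channels hyperpolarize the membrane and close the L-type channels, whereas calcium-activated chloride channels depolarize it. Natriuretic peptides relax arteries through cyclic GMP, and the large-conductance potassium channel and the sarcoplasmic pump are among the known effectors of that pathway.

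Total counts ranged from 62969165 to 86693276 per library. The targeted gene, Npr3, did not separate the groups, with FPKM (fragments per kilobase of transcript, scaled to sequencing depth) of 1.69, 0.93, 0.62, 1.01 and 1.67 in the libraries titled ApoE-/- and 1.18, 1.39 and 1.13 in those titled NPRC-/-ApoE-/-. Its log2 fold change was 0.10 ± 0.28 (SE) by title and 0.16 ± 0.28 by genotype entry. A frameshift need not lower the RNA, so that this level does not tell which label holds. The labelled tissue was checked by 10 smooth muscle markers, among them Acta2 and Myh11, and all 10 were expressed above the filter. Fold changes throughout are those of NPRC-/-ApoE-/- over ApoE-/- from edgeR's quasi-likelihood test on the deposited counts, fitted over 20506 loci, and adjusted p-values are those of Benjamini and Hochberg over all of them.

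The promoters of both potassium channel pairs are shown because the first pair moved together across the libraries and the second did not, as described further on. Whether the sequences bear on this was not tested. RefSeq (GRCm38.p6) gave promoters for 8 of the 10 members. Each sequence holds the 250 bases before the transcription start in the direction of transcription, and capitals mark GC boxes (GGGCGG on either strand).
Kcnma1, chr14:24004206-24004455, minus strand: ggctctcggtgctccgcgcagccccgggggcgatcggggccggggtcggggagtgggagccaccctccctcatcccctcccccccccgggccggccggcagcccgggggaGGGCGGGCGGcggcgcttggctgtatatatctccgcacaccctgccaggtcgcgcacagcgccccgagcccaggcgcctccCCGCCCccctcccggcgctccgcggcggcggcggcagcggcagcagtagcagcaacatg
Kcnmb1, chr11:33962763-33963012, plus strand: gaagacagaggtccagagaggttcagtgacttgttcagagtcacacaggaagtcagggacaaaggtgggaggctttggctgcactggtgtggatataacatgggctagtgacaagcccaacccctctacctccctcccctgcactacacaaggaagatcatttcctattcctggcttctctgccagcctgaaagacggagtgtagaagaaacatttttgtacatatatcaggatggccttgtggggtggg
Kcnj8, chr6:142571615-142571864, minus strand: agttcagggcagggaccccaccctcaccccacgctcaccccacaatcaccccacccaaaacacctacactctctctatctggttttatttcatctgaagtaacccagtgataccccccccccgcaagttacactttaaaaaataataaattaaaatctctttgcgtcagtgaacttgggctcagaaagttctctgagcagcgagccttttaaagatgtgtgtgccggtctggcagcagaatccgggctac
Abcc9, chr6:142702275-142702524, minus strand: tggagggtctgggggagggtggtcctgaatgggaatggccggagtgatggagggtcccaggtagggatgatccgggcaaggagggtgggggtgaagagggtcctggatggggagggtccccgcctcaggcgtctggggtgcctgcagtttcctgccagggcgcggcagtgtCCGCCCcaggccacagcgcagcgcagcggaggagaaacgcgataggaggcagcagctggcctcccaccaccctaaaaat
In the window that adds the 50 bases after the start, the GC content was 78.0% for Kcnma1, 49.7% for Kcnmb1, 53.3% for Kcnj8 and 65.7% for Abcc9, beside a median of 52.7% over 32851 promoters. Kcnma1 held 3 GC boxes, Abcc9 held 1, and Kcnmb1 and Kcnj8 held 0 in these windows, while 35.7% of all promoters held at least 1. The CArG box, the site of serum response factor in smooth muscle genes, was searched for as CC, a run of A or T, and GG. It was found in 0 of the 10 promoters of the members and in 1.63% of all promoters. TATAAA on either strand was found for Pln alone among the members, and in 13.6% of all promoters.

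By title, 5 of the 9 members tested were higher in NPRC-/-ApoE-/- at an unadjusted p under 0.05 and 0 were lower, beside 6.51% higher and 7.13% lower of all loci tested. Those 5 were both subunits of the large-conductance potassium channel (Kcnma1 and Kcnmb1), the L-type channel (Cacna1c) and the calcium release channels (Itpr1 and Ryr2). The locus taken for Ryr2 lies on the strand opposite to the gene. A two-sided exact permutation test on log2 CPM (counts scaled to library size) by title gave p = 0.071 for each of the 5. By genotype entry, 0 of the 9 passed in either direction, beside 0.614% higher and 0.697% lower of all loci. No member passed the criterion used by the study, more than 2-fold up or less than 0.5-fold at an unadjusted p under 0.05, which 3.47% of all loci passed by title and 0.463% by genotype entry. With adjustment over all loci edgeR called 0 loci by title (0%) and 0 by genotype entry (0%), and the smallest adjusted p was 0.053 by title. With DESeq2, 9 loci were called by genotype entry, and 650 by title, among them Kcnmb1 (adjusted p = 0.027) and no other member. The median log2 fold change of the 9 members was 0.47 by title and 0.06 by genotype entry, beside −0.01 and −0.00 over all loci. All 10 smooth muscle markers were also higher by title, with a median of 0.77. In whole tissue more cells of a type and more RNA per cell cannot be told apart.

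Kcnma1 encodes the pore of the large-conductance calcium-activated potassium (BK) channel. It was expressed at 3.88, 4.11, 6.17, 4.44 and 5.43 FPKM in ApoE-/- 1 to 5 of the titles, and at 6.0, 10.5 and 8.13 FPKM in NPRC-/-ApoE-/- 1 to 3. The groups overlapped, since NPRC-/-ApoE-/- 1 lay below ApoE-/- 3, whereas NPRC-/-ApoE-/- 2 and 3 lay above every other library. The mean was 8.21 ± 2.25 (SD, n = 3) against 4.81 ± 0.97 (n = 5), a log2 fold change of 0.79 ± 0.23 (SE) in edgeR's test with an unadjusted p of 0.0078 and an adjusted p of 0.27. By genotype entry it was 0.00 ± 0.36.

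Kcnmb1 encodes the β1 subunit, which raises the calcium sensitivity of the BK channel in smooth muscle. It was expressed at 6.40, 6.07, 7.28, 5.66 and 7.22 FPKM in the libraries titled ApoE-/- and at 7.88, 11.2 and 13.5 FPKM in those titled NPRC-/-ApoE-/-. All 3 libraries titled NPRC-/-ApoE-/- lay above all 5 titled ApoE-/-, which was true of 1 of the 9 members tested and of 2.88% of all loci. By genotype entry it was true of 0 members and of 0.405% of all loci. On log2 CPM the titled groups overlapped, since NPRC-/-ApoE-/- 1 (6.235) lay just below ApoE-/- 3 (6.241). The titled groups had means of 10.8 ± 2.81 and 6.53 ± 0.71 FPKM (SD), and the log2 fold change was 0.76 ± 0.19 (edgeR, unadjusted p = 0.0033, adjusted p = 0.26), against 0.22 ± 0.32 by genotype entry. Kcnma1 and Kcnmb1 kept an unadjusted p under 0.05 by title with each of the 8 libraries left out in turn.

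**Figure D1:**
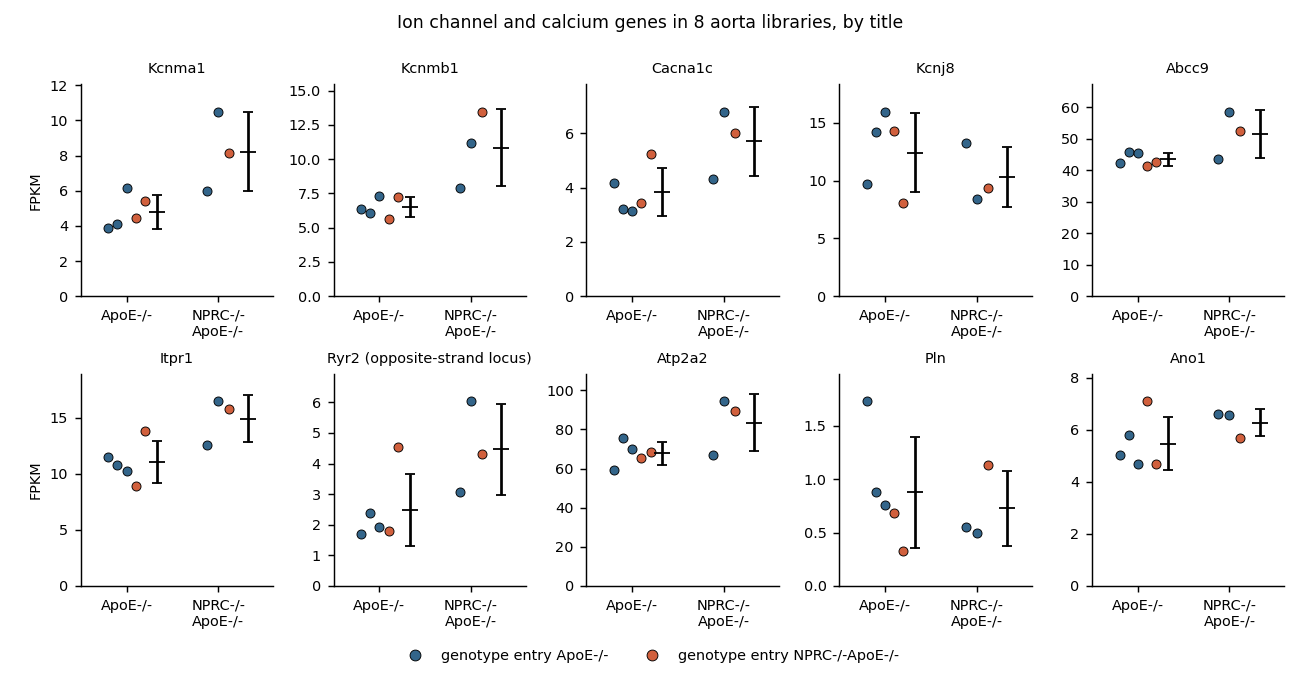
FPKM of the 10 members in each of 8 libraries (y axes start at 0). The columns are the titled groups, the colour gives the genotype entry, and the bars give mean ± SD of the titled groups. For Kcnmb1 FPKM the 3 libraries titled NPRC-/-ApoE-/- lie above the 5 titled ApoE-/-, from 7.88 FPKM upward.

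Cacna1c encodes the pore of the L-type calcium channel, the main route of voltage-gated calcium entry in arterial muscle. Its FPKM was 4.18, 3.21, 3.13, 3.44 and 5.24 by library titled ApoE-/- and 4.31, 6.79 and 6.02 by library titled NPRC-/-ApoE-/-. Only ApoE-/- 5 lay within the range of the other group. The log2 fold change by title was 0.61 ± 0.21 in edgeR's test (unadjusted p = 0.018, adjusted p = 0.31), and by genotype entry 0.21 ± 0.29. The call was lost without NPRC-/-ApoE-/- 2 and without NPRC-/-ApoE-/- 3. The length implied for the locus was 7.23 times the annotated exon length, as described further on. The fold change need therefore not be that of the exons alone.

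Itpr1 encodes the inositol trisphosphate receptor, which releases calcium from the sarcoplasmic reticulum downstream of vasoconstrictor receptors. It was measured at 11.5, 10.8, 10.2, 8.88 and 13.8 FPKM in the libraries titled ApoE-/- and at 12.6, 16.4 and 15.7 FPKM in those titled NPRC-/-ApoE-/-. Again ApoE-/- 5 was the highest of its group and overlapped the lowest of the other, NPRC-/-ApoE-/- 1. By title the log2 fold change was 0.47 ± 0.16 (edgeR, unadjusted p = 0.017, adjusted p = 0.31), and it was 0.09 ± 0.23 by genotype entry. As for Cacna1c, the call was lost without NPRC-/-ApoE-/- 2 or NPRC-/-ApoE-/- 3.

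Ryr2 encodes a ryanodine receptor, the other release channel. The locus with the most counts under that name (chr13:12060487-12105735 in GRCm38) lies on the plus strand, opposite to the gene. It was at 1.71, 2.39, 1.94, 1.81 and 4.54 FPKM in the libraries titled ApoE-/- and at 3.07, 6.03 and 4.30 FPKM in those titled NPRC-/-ApoE-/-. The locus on the strand of the gene was at 1.43, 1.13, 1.65, 0.91 and 2.21 FPKM against 1.94, 2.91 and 3.38 FPKM. In both, ApoE-/- 5 overlapped the other group. The opposite-strand locus had a log2 fold change of 0.89 ± 0.33 by title (edgeR, unadjusted p = 0.024, adjusted p = 0.32), and the sense locus 0.94 ± 0.29 (edgeR, unadjusted p = 0.0093, adjusted p = 0.28). By genotype entry the values were 0.25 ± 0.45 and 0.29 ± 0.42. The call for the opposite-strand locus was lost without ApoE-/- 1, ApoE-/- 4, NPRC-/-ApoE-/- 2 or NPRC-/-ApoE-/- 3.

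Among the members, the count of 5 at an unadjusted p under 0.05 fell to 2 without NPRC-/-ApoE-/- 2 and to 2 without NPRC-/-ApoE-/- 3, and was between 2 and 7 over the 8 libraries left out in turn. The count over all loci moved with it, from 2797 of 20506 to 1302 of 19896 and 1351 of 20016 in those fits, and to 4368 of 20119 without NPRC-/-ApoE-/- 1, where the members reached 7. Where both labels agreed, in 4 libraries (ApoE-/- 1, 2 and 3 and NPRC-/-ApoE-/- 3), the log2 fold change was 0.85 for Kcnma1, 1.11 for Kcnmb1, 0.87 for Cacna1c, 0.63 for Itpr1 and 1.17 for the opposite-strand locus of Ryr2, with 1 library in a group and no test. For Kcnj8 it was −0.44, for Abcc9 0.32, for Atp2a2 0.46 and for Ano1 0.21. The mean log2 CPM of the 10 smooth muscle markers was 8.81, 8.69 and 9.09 in ApoE-/- 1, 2 and 3. In NPRC-/-ApoE-/- 3 it was 9.99.

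Kcnj8 and Abcc9 encode the pore (Kir6.1) and the sulfonylurea receptor (SUR2) of the vascular ATP-sensitive potassium channel. They are neighbours on the minus strand of chromosome 6, with 16.2 kb between their loci. Kcnj8 was measured at 9.68, 14.2, 16.0, 14.3 and 8.05 FPKM in the libraries titled ApoE-/- and at 13.3, 8.39 and 9.32 FPKM in those titled NPRC-/-ApoE-/-. It was the only tested member with a fold change below 0 by title, and the groups overlapped widely (log2 fold change −0.26 ± 0.28, edgeR, unadjusted p = 0.37, adjusted p = 0.70). By genotype entry it was −0.18 ± 0.29. Abcc9 varied little among the libraries titled ApoE-/-, at 42.2, 45.7, 45.5, 41.3 and 42.6 FPKM, and was at 43.5, 58.5 and 52.4 FPKM in those titled NPRC-/-ApoE-/-. NPRC-/-ApoE-/- 1 lay among the ApoE-/- libraries and the other two above them. Its log2 fold change was 0.27 ± 0.15 by title (edgeR, unadjusted p = 0.11, adjusted p = 0.45) and −0.02 ± 0.18 by genotype entry.

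Atp2a2 encodes SERCA2, the pump that returns calcium to the sarcoplasmic reticulum, and Pln encodes phospholamban, its inhibitor. Atp2a2 had the highest FPKM of the 10 members, at 59.4, 75.5, 70.1, 65.2 and 68.4 in the libraries titled ApoE-/- and 66.8, 94.3 and 89.3 in those titled NPRC-/-ApoE-/-. The groups overlapped through NPRC-/-ApoE-/- 1, and the log2 fold change was 0.32 ± 0.17 by title (edgeR, unadjusted p = 0.091, adjusted p = 0.43) and 0.06 ± 0.21 by genotype entry. Pln was the lowest member and was not tested with the others, since it did not reach 1 FPKM in 3 libraries. It was at 1.73, 0.88, 0.76, 0.68 and 0.33 FPKM against 0.55, 0.50 and 1.13 FPKM, with the highest and the lowest library both titled ApoE-/-. A two-sided exact permutation test on log2 CPM gave p = 0.82 by title and p = 0.61 by genotype entry.

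Ano1 encodes TMEM16A, the calcium-activated chloride channel of vascular muscle. It was at 5.04, 5.81, 4.69, 7.09 and 4.69 FPKM in the libraries titled ApoE-/- and at 6.60, 6.56 and 5.67 FPKM in those titled NPRC-/-ApoE-/-, and its highest library was titled ApoE-/-. The log2 fold change was 0.21 ± 0.17 by title (edgeR, unadjusted p = 0.25, adjusted p = 0.60) and 0.06 ± 0.19 by genotype entry. Of the 8 libraries left out in turn, leaving out ApoE-/- 4 alone brought its unadjusted p under 0.05.

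**Figure D2:**
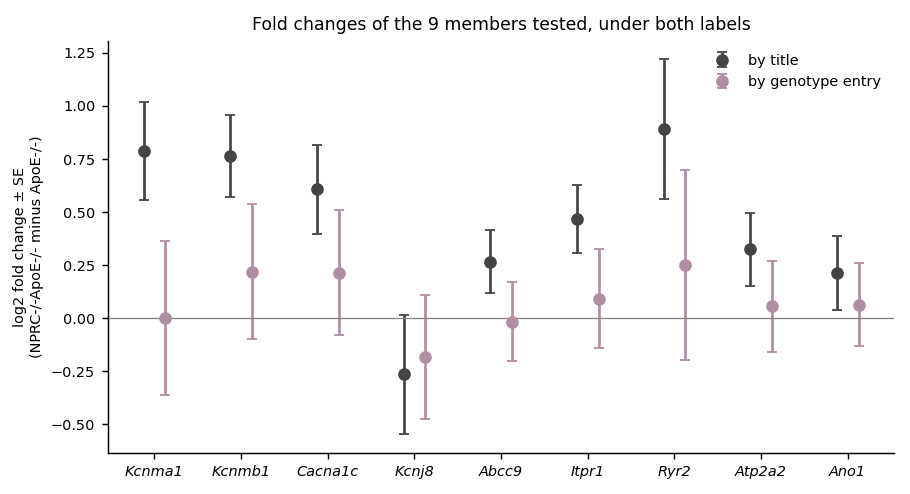
Log2 fold change (NPRC-/-ApoE-/- minus ApoE-/-) ± SE of the 9 members tested, from the fit by title (dark) and the fit by genotype entry (light). By title 8 of 9 lie above 0, from 0.21 for Ano1 to 0.89 for the opposite-strand locus of Ryr2, and by genotype entry the values lie between −0.18 and 0.25.

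In order of median FPKM over the 8 libraries, Atp2a2 (69.3) and Abcc9 (44.5) stood above the rest, with ranges that overlapped neither each other nor that of Itpr1 (12.03). Below them each neighbour overlapped the next. The order was Itpr1, Kcnj8 (11.5), Kcnmb1 (7.25), Ano1 (5.74), Kcnma1 (5.72), Cacna1c (4.25), the opposite-strand locus of Ryr2 (2.73) and Pln (0.72). Itpr1 exceeded Kcnj8 in 4 of 8 libraries and Ano1 exceeded Kcnma1 in 4 of 8, so that these neighbours have no order. Such levels depend on the length of the assembled locus. The length implied by counts and FPKM was 7.23 times the annotated exon length for Cacna1c (153.2 kb against 21.2 kb) and 3.30 times for Ano1. It was 2.27 times for Kcnmb1 and 2.18 times for Itpr1. Beside these it was 1.20 times for Kcnj8, with a median of 1.21 times in 67 tested loci that kept an Ensembl identifier. The locus taken for Ryr2 lies opposite to the gene, so its 1.89 times sets it against exons of the other strand. The measure is approximate, since the 54.4 kb implied for that locus exceed the 45.2 kb that it spans. The order of levels among these genes depends on this measure.

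The partners of 4 functional pairs were compared as FPKM ratios within each library. Kcnmb1 to Kcnma1 was 1.65, 1.48, 1.18, 1.27 and 1.33 in the libraries titled ApoE-/- and 1.31, 1.07 and 1.66 in those titled NPRC-/-ApoE-/-. The titled groups overlapped, and the log2 ratio differed by −0.05 (two-sided exact permutation test, p = 0.82). Abcc9 to Kcnj8 was 2.85 to 5.29 against 3.28, 6.97 and 5.62, a difference of 0.48 on the log2 scale (exact permutation p = 0.18). Pln to Atp2a2 was 0.0048 to 0.029 against 0.0082, 0.0053 and 0.013, a log2 difference of −0.46 (exact permutation p = 0.50). Ryr2 to Itpr1 was 0.15 to 0.33 against 0.24, 0.37 and 0.27, a log2 difference of 0.46 (exact permutation p = 0.18), and with the sense locus of Ryr2 the difference was 0.49 (exact permutation p = 0.11). By genotype entry the 4 log2 differences, in the same order, were 0.094, 0.17, −0.35 and 0.23. Adjusted over the 4 ratios the exact p-values were between 0.36 and 0.82 by title, and 0.68 for each by genotype entry. The smallest p that 5 against 3 libraries allow is 0.036.

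**Figure D3:**
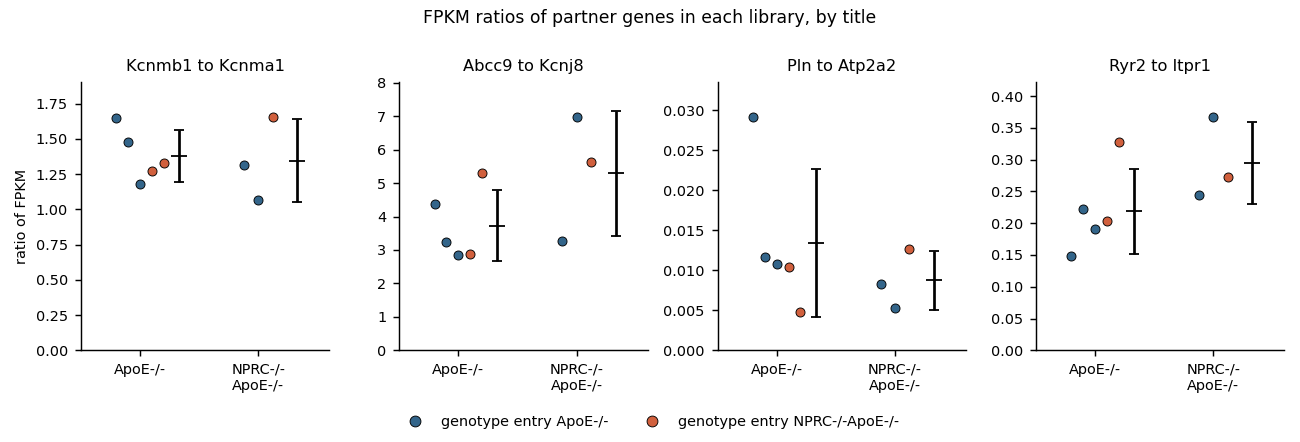
Ratios of FPKM of partner genes in each of 8 libraries (y axes start at 0), by titled group, with the genotype entry as colour and bars for mean ± SD. The groups overlap in all 4 panels, and the Pln to Atp2a2 ratio of ApoE-/- 1, at 0.029, is the highest of its panel.

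Across the 8 libraries, log2 CPM (counts scaled to library size) of Kcnma1 and Kcnmb1 were correlated, with a Pearson r of 0.90 (exact permutation p = 0.0047, adjusted over 3 pairs 0.014) and a Spearman rho of 0.90 (exact permutation p = 0.0046, adjusted 0.014). Without NPRC-/-ApoE-/- 2 and 3, the libraries farthest from the median, r was 0.91, and after subtracting the mean of each titled group it was 0.75. Other loci followed Kcnmb1 more closely, with r of 0.98 for Myh9, Reck and Flna, the highest of a search over many loci. Whether the r of 0.90 is particular to this pair was not tested. For Kcnj8 and Abcc9, r was −0.09 (exact permutation p = 0.83) and rho 0.24 (exact permutation p = 0.58), and without ApoE-/- 3 and 5 r was −0.58. For Atp2a2 and Pln, r was −0.05 (exact permutation p = 0.90) and rho 0.07 (exact permutation p = 0.88), and r was −0.26 without NPRC-/-ApoE-/- 2 and 3. The adjusted p-values of these last pairs were between 0.87 and 0.90.

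The smooth muscle markers moved with the members. By title all 10 of 10 markers were higher at an unadjusted p under 0.05, beside 6.51% of all loci, with a median log2 fold change of 0.77. By genotype entry 0 of the 10 markers passed. Their mean log2 CPM was 8.81, 8.69, 9.09, 8.68 and 9.04 in the libraries titled ApoE-/- and 8.96, 9.77 and 9.99 in those titled NPRC-/-ApoE-/- (difference 0.71, two-sided exact permutation p = 0.11), and by genotype entry the difference was 0.18 (exact permutation p = 0.68). NPRC-/-ApoE-/- 2 and 3 were the highest libraries for the markers. On log2 CPM they were also the highest for Kcnma1, Kcnmb1, Cacna1c, Abcc9, Itpr1, Ryr2 and Atp2a2, but not for Kcnj8, Pln or Ano1. By FPKM the opposite-strand locus of Ryr2 was higher in ApoE-/- 5 (4.54) than in NPRC-/-ApoE-/- 3 (4.30). NPRC-/-ApoE-/- 1 lay among the ApoE-/- libraries for the markers.

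Relative to the mean of these markers, 0 of the 9 tested members had groups that did not overlap, by title or by genotype entry, beside 11.6% of all loci by title and 0.307% by genotype entry. The difference between titled groups was then 0.07 for Kcnma1, 0.01 for Kcnmb1, −0.11 for Cacna1c, −0.25 for Itpr1 and 0.21 for Ryr2 on the log2 scale. Kcnmb1 was the steadiest, between −3.02 and −2.72 in all 8 libraries. Kcnj8 differed most, by −0.94, since NPRC-/-ApoE-/- 2 and 3 lay at −5.07 and −5.05 while the other 6 libraries lay between −4.48 and −3.13. Abcc9 (−0.46), Atp2a2 (−0.40), Ano1 (−0.48) and Pln (−0.87) were also lower relative to the markers, within overlapping ranges. By genotype entry the differences lay between −0.46 for Pln and 0.13 for Ryr2.

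**Figure D4:**
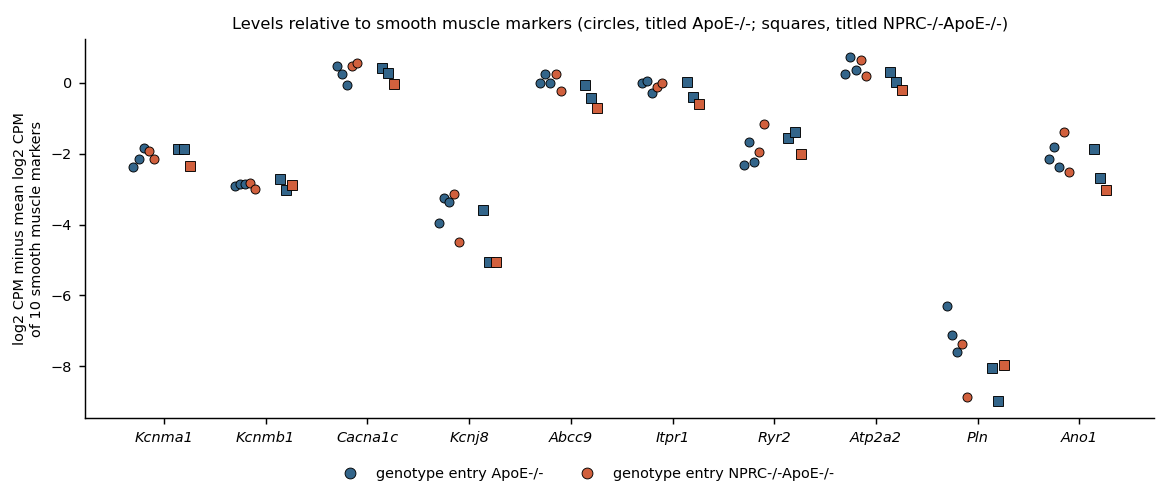
Log2 CPM of each member minus the mean log2 CPM of 10 smooth muscle markers in each of 8 libraries. Circles are titled ApoE-/- and squares NPRC-/-ApoE-/-, and the colour is the genotype entry. The groups overlap for all 10 members, and Kcnmb1 stays between −3.02 and −2.72.

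Markers of some other cell types moved too. Of all loci, 6.51% were higher and 7.13% lower by title at an unadjusted p under 0.05, the threshold used here. By title 5 of 10 macrophage markers, 2 of 8 fibroblast markers and 3 of 4 tested sympathetic neuron markers were lower, and 0 of each were higher. Their summed CPM in the titled groups was 1637 to 4695 against 1056 to 2427 for macrophage, 4017 to 10644 against 2825 to 5197 for fibroblast, and 34.9 to 164.0 against 22.1 to 35.2 for neuron markers. Of the pericyte markers 2 of 7 were higher and 1 lower (1774 to 3100 against 2388 to 3260 CPM), of the endothelial markers 1 of 10 passed, higher, through a locus opposite in strand to Erg (1402 to 1598 against 1428 to 1459 CPM), and of the adipocyte markers 0 of 9 passed (815 to 2473 against 1513 to 2122 CPM). By genotype entry 0 markers of any list passed, beside 0.614% higher and 0.697% lower of all loci. The 10 markers of cardiac muscle, another tissue rich in Ryr2, Atp2a2 and Pln, summed to 10.98 to 59.1 against 12.6 to 27.1 CPM. Myh6, Myl7 and Myl2 were at 0 in at least 1 library, and 0 of the 2 tested markers passed. Actc1 was present in all 8 libraries, at 0.70 to 7.78 FPKM, and Myh6 reached 3.32 FPKM in ApoE-/- 3. Beside these, Pln was at 0.33 to 1.73 FPKM. The skeletal muscle markers, 10 genes over 9 loci, summed to 3.01 to 44.9 against 32.1 to 39.9 CPM, 0 of the 3 tested passed, and Tnnc2 was at 0 in at least 1 library. What part these cell types have in the differences of the members was not tested.

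The names of the members were carried by 36 loci in all, 12 on the strand of the gene and 24 on the opposite strand. The opposite-strand loci held 74.6% of all counts under the name Kcnma1, 61.7% for Ryr2, 43.0% for Cacna1c, 28.9% for Ano1, 17.3% for Itpr1 and 0.49% for Atp2a2. All 24 passed the filter, and by title 15 of them were higher at an unadjusted p under 0.05 and 0 were lower. Of all loci, 6.51% were higher and 7.13% lower. The 15 were 10 of the 11 at Kcnma1, 4 of the 5 at Cacna1c and 1 of the 3 at Ryr2. Many of the 24 loci lie within the same gene and were measured in the same libraries, so they are not separate results. The log2 fold changes of the 24 loci ranged from 0.22 to 1.11. By genotype entry 0 passed, beside 0.614% higher and 0.697% lower of all loci. Of the loci opposite to Kcnma1, the one with the most counts (chr14:23957621-24002657) was at 3.62, 2.27, 3.37, 2.38 and 5.13 FPKM in the libraries titled ApoE-/- and at 4.43, 8.18 and 7.01 FPKM in those titled NPRC-/-ApoE-/-, a log2 fold change of 1.00 ± 0.28 beside the 0.79 of the sense locus. Whether the counting used strand is not stated in the sources used here, so reads from a gene and from its opposite-strand loci cannot be told apart.

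**Figure D5:**
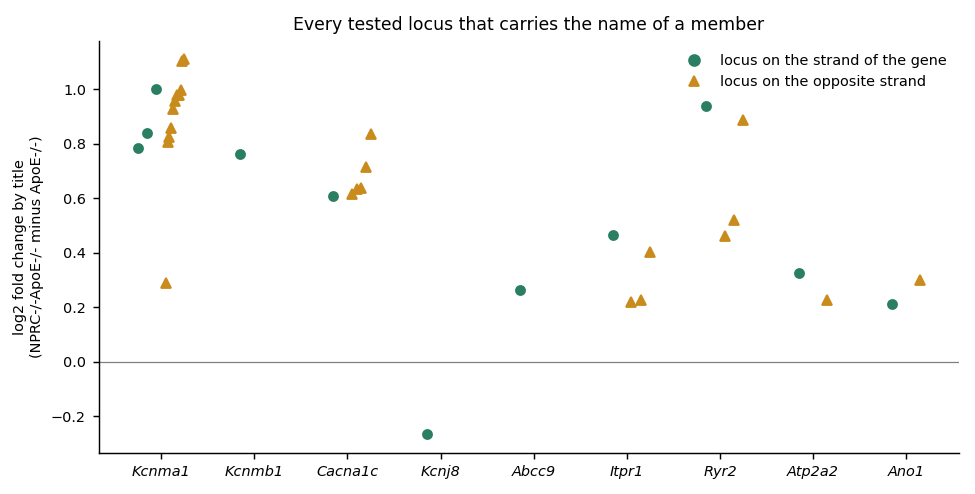
Log2 fold change by title (NPRC-/-ApoE-/- minus ApoE-/-) of each tested locus that carries the name of a member, with circles for loci on the strand of the gene and triangles for the opposite strand. The 24 opposite-strand loci lie between 0.22 and 1.11, and Kcnj8, with its single locus, lies at −0.26.

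Of 70 other channel and calcium genes, 50 were tested, and by title 8 were higher and 4 lower at an unadjusted p under 0.05, with a median log2 fold change of 0.03, beside 6.51% higher and 7.13% lower of all loci. The share lower is thus near that of all loci. By genotype entry 0 of 50 passed, and the values that follow are by title unless stated. The voltage-gated potassium channels that hold the resting potential of arterial muscle went both ways. Kcna5 was at 1.70, 1.09, 1.72, 1.10 and 1.37 FPKM against 3.39, 2.29 and 2.90 FPKM (log2 fold change 1.06 ± 0.22, edgeR, unadjusted p = 0.0011, adjusted p = 0.22). Its titled groups did not overlap in FPKM, and 2.88% of all loci were higher in this way. By genotype entry its log2 fold change was −0.14 ± 0.43. Kcna2 had a log2 fold change of −0.65 (−0.17 by genotype entry), and its groups overlapped.

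Jph2 and Mrvi1, of the calcium release apparatus, were among the listed genes that were higher in FPKM without overlap, beside 2.88% of all loci. For Mrvi1 the gap ran only from 7.31 to 7.53 FPKM. Jph2, whose product ties the sarcoplasmic reticulum to the plasma membrane, was at 7.68, 8.78, 9.25, 7.18 and 9.27 FPKM against 12.9, 16.9 and 16.2 FPKM (log2 fold change 0.89 ± 0.15, edgeR, unadjusted p = 0.00023, adjusted p = 0.18), and by genotype entry its log2 fold change was 0.01 ± 0.34. Mrvi1, the cyclic GMP kinase substrate that binds the inositol trisphosphate receptor, was at 7.31, 5.17, 6.19, 4.81 and 6.87 FPKM against 7.53, 11.2 and 13.8 FPKM (0.87 ± 0.22, edgeR, unadjusted p = 0.0034, adjusted p = 0.26), with 0.23 ± 0.37 by genotype entry. Fkbp1b, a ryanodine receptor stabilizer, was lower, at 2.08, 2.09, 2.88, 3.85 and 1.64 FPKM against 1.21, 1.01 and 0.45 FPKM (−1.49 ± 0.41, edgeR, unadjusted p = 0.0057, adjusted p = 0.26). Its titled groups did not overlap, with a gap only from 1.21 to 1.64 FPKM. The share of all loci that were lower in this way was not counted. By genotype entry the value of Fkbp1b turned to 0.12 ± 0.61.

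Among other genes of the list that passed by title, Pkd1 (polycystin, log2 fold change 0.51), Stim1 (the reticular calcium sensor, 0.31) and Camk2g (a calcium-dependent kinase, 0.43) were higher. Atp2b1 (the plasma membrane calcium pump, −0.45) and Orai2 (a store-operated channel, −1.15) were lower. By genotype entry these values were 0.06 for Pkd1, −0.03 for Stim1, 0.02 for Camk2g, 0.03 for Atp2b1 and −0.28 for Orai2. Large fold changes without a call were those of Atp2a1 (1.25 ± 1.09), the pump of fast skeletal muscle, and Kcnn4 (−1.08 ± 0.48), which were 0.03 and −0.12 by genotype entry. Atp2a1 was at 2.98, 0.14, 0.18, 0.12 and 3.95 FPKM against 3.94, 3.52 and 2.47 FPKM, and the 5 libraries above 2 FPKM were those in which the skeletal muscle markers summed to 32.1 CPM or more, against 4.60 CPM or less in the other 3.

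The loci whose log2 CPM followed each member most closely over the 8 libraries, among loci with 1 gene name and a mean of at least 1 FPKM, had Pearson r between 0.92 and 0.99. These r are the highest of a search over all such loci in only 8 libraries. Values this high can arise from the selection alone, and they were not tested. The loci were Gpr161, Ccdc3 and Itga3 for Kcnma1, Myh9, Reck and Flna for Kcnmb1, Thsd4, Efna5 and Erg for Cacna1c, and Slc7a5, Ric8a and Slc16a3 for Kcnj8. Those of Abcc9 were Gm38340, Atp2a2 and a locus named Mir6907, those of Itpr1 Tnik, Rasl12 and Sh3bgr, those of Ryr2 Ciao2b, Cpeb3 and Focad, and those of Atp2a2 Gstm2, Fam129a and Actg2. Pln was followed by Gm23548, Gm10269 and Maml3, and Ano1 by Gm22106, Mllt3 and Lnx1. Abcc9 and Atp2a2 were the only members to appear in such a triplet together, with r = 0.96.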

How the data were processed

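Total RNA of the entire aorta was enriched for poly(A), made into strand-marking libraries and sequenced as read pairs. The authors trimmed the reads (cutadapt 1.9 in the submitters' processing notes, which also name FastQC), mapped them with HISAT2 to GRCm38 and assembled loci with StringTie. They deposited whole-number counts per locus without normalization and FPKM values normalized by transcript length and mapped fragments. The table held 0 columns of values without a sample.

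Of 48607 loci, 20506 reached 1 FPKM in 3 or more libraries and entered edgeR 4.0.16 in R 4.3.3 (TMM, quasi-likelihood test, Benjamini-Hochberg adjustment), checked first on simulated counts, all 8 libraries entering each fit. Ratios and correlations were tested with exact permutation in scipy 1.17.1. CPM values used a prior count of 2 on the log2 scale. The submitters describe aortas of 5 and 3 mice, so libraries were taken as separate animals; the methods name 5 mice in each group, and 8 libraries are analysed here. Alternatives with DESeq2 1.42.0, limma 3.58.1, other filters, other scaling, a replicate block and left-out libraries are given in the closing section. Same-numbered libraries did not deviate together (correlations −0.27, −0.13 and −0.01), so the numbers were not used to pair them. No 2 libraries were duplicates.

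The members and lists were chosen with earlier results of these data known. Named are all members, other listed genes with an unadjusted p under 0.05 or among the 5 largest fold changes by title, and the 3 loci closest to each member. The results of 2 listed genes are counted but not reported here by name.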

Additional observations from a re-analysis of the deposited data

How the results depend on the processing

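The 5 members called by title at an unadjusted p under 0.05 became 2 without NPRC-/-ApoE-/- 2 and 2 without NPRC-/-ApoE-/- 3, with a range of 2 to 7 over the left-out libraries. The count past the fold criterion, 0 by title, became 1 with voom and sample quality weights and was 0 to 1 over the left-out libraries (1 without ApoE-/- 5 or NPRC-/-ApoE-/- 1); that member was the opposite-strand locus of Ryr2. With the replicate block in the 6 libraries numbered 1 to 3, 1 member passed the fold criterion and 3 passed the unadjusted p, against 1 and 5 in the same libraries without the block; the numbers do not pair the libraries. The log2 difference of the Kcnmb1 to Kcnma1 ratio, −0.05 by title, was 0.094 by genotype entry and ranged from −0.21 to 0.10 over the left-out libraries, turning positive without ApoE-/- 1 (0.01) or NPRC-/-ApoE-/- 2 (0.10).

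Of the single members by title, Abcc9 alone changed direction, to −0.0159 by genotype entry. By genotype entry no member was called under any alternative, and signs changed for Abcc9 (0.0064) and Ano1 (−0.10) with voom weights, for Ano1 (−0.0159) with all loci of a member summed, and for Kcnma1 (−0.00078) without a filter and with filterByExpr (−0.0025), an alternative added, like the sense locus of Ryr2, after seeing the data. Over the left-out libraries the values by genotype entry ranged from −0.32 to 0.30 for Kcnma1, −0.28 to 0.44 for Kcnmb1, −0.0034 to 0.46 for Cacna1c, −0.50 to 0.018 for Kcnj8, −0.17 to 0.092 for Abcc9, −0.12 to 0.28 for Itpr1, −0.13 to 0.18 for Atp2a2 and −0.13 to 0.24 for Ano1. The cause of these changes was not tested. The adjusted p of Kcnmb1 by title was 0.26 with edgeR and at its lowest 0.027, with DESeq2. Its highest value over the alternatives was that of the fit by genotype entry. No other member had an adjusted p under 0.05 in any alternative. All loci called at an adjusted p under 0.05 by title numbered 0 with edgeR and all libraries, 43 with edgeR without NPRC-/-ApoE-/- 1 and 0 to 2 without any other library, 2 with edgeR and a mean of at least 5 FPKM, 650 with DESeq2, 130 with voom and sample quality weights, and 2 with limma on log2(FPKM + 1).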
